A study of Mus musculus with 2 samples.

Results

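Fibro-adipogenic progenitors (FAPs) are the PDGFRA+ mesenchymal cells of skeletal muscle, and the cells described here are the FAPs caught with cell cycle transcripts. They were chosen by their own counts. A cell had to hold at least 500 genes, at least 1 unique molecular identifier (UMI) of Pdgfra and at least 5 of Dcn, none of Ptprc, Cdh5 or Pecam1, and at most 1 of the tendon genes Tnmd, Kera and Chad together. Of the 1776 cells inside this gate, 82 held UMIs of at least 3 of the 6 genes Mki67, Top2a, Birc5, Cdk1, Ccna2 and Ube2c, and are called cycling FAPs. They were 82 of 8010 barcodes in all, 45 of 4527 in Ctrl and 37 of 3483 in dKO.

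The series surveyed the live mononuclear fraction of hind limb muscle by droplet single-cell RNA-seq. All mice were mdx, a dystrophin-deficient model of Duchenne muscular dystrophy. Ctrl is the Pax7CreERT2/R26YFP; Yy1+/+; mdx genotype and dKO is Pax7CreERT2/R26YFP; Yy1f/f; mdx. Both genotypes carried the Cre and the YFP reporter and were given tamoxifen, so the mdx background, the Cre and the drug are shared. The Pax7 promoter drives the Cre in muscle stem cells (MuSCs), and FAPs were not its target. Mice of a genotype were pooled into 1 library each, so no test between genotypes is possible, and every interval below is a 95% interval that covers counting error only.

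Most FAPs in resting muscle do not divide. After injury, and in dystrophic muscle, part of them enter the cell cycle, in which licensing factors and the replication fork copy the DNA in S phase, and cyclin B with CDK1, the kinetochore and the spindle drive mitosis. FAPs also make much of the collagen of the muscle and signal to MuSCs, endothelial cells (ECs) and monocytes/macrophages (MO/MPs).

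Yy1, the gene targeted in MuSCs, checked the labels. Among cells gated on MuSC genes, Yy1 stood at 161 CPM (UMIs of the gene scaled to a total of 1000000 per cell set) over 110 Ctrl cells and at 5.74 CPM over 28 dKO cells, a ratio of 0.0356 (0.00966 to 0.092). In cycling FAPs it stood at 171 CPM in Ctrl and 139 CPM in dKO, a ratio of 0.815 (0.673 to 0.986), and was found in 44 of 45 and 36 of 37 cells. The ratio was 1.09 (1.00342 to 1.18) in non-cycling FAPs and 1.01 (0.829 to 1.22) in cycling MO/MPs. The transcript targeted in MuSCs was thus present in nearly every cycling FAP of both libraries. The libraries held 45556596 and 33815155 UMIs. They shared 7 barcodes, of which 0 were cycling FAPs.

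Cycling FAPs were deeper than other FAPs. Their UMIs per cell ran from 6232 through a median of 28146 to 77897 in Ctrl and from 13275 through 35629 to 78512 in dKO. FAPs with none of the 6 genes, called non-cycling FAPs (700 in Ctrl and 778 in dKO), had medians of 11096 and 12193 UMIs. Cells of at least 20000 UMIs made up 82.2% of the cycling and 15.3% of the non-cycling FAPs in Ctrl, and 89.2% and 18.4% in dKO. A low count is more easily seen in a deep cell, and the part of depth in the selection was not tested beyond the thinned shares given below. When simulated doublets were mixed with the real cells, 12 of the 45 Ctrl and 12 of the 37 dKO cycling FAPs were among the 7.5% of cells with most simulated neighbours, against 3 of 700 and 18 of 778 non-cycling FAPs. The members so marked had median UMIs of 46825 and 40717, and 11 of 12 and 12 of 12 held all 6 genes. Against the other members they had macrophage markers at 110 against 125 CPM in Ctrl and 112 against 65.4 CPM in dKO, endothelial markers at 22.4 against 27.3 CPM and 5.91 against 15.8 CPM, and MuSC and muscle markers at 304 against 185 CPM and 266 against 142 CPM. Their G2/M list stood at 9503 against 3492 CPM and 7660 against 3187 CPM. Whether the marked cells are doublets was not tested. Ratios of lists, and of genes named by a fold rule, are given again without these 24 cells where they moved by over 1.5 times.

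The FAP label was set beside marker genes. The 10 FAP markers outside the gate, among them Cd34, Ly6a, Lum, Dpt, Gsn and Col1a2, summed to 11919 CPM in Ctrl and 13471 CPM in dKO cycling FAPs, with 0 of them at 0. Per cell this was 394 UMIs in Ctrl and 508 in dKO, against 303 and 320 in non-cycling FAPs, which the gate also holds. As a share of the larger UMI total it was lower than in non-cycling FAPs, by a ratio of 0.4999 (0.492 to 0.508) in Ctrl and 0.5697 (0.561 to 0.578) in dKO. Markers of other cells are given next. The gate asked for 0 UMIs of Ptprc, Cdh5 and Pecam1 and at most 1 of the tendon genes, so low sums of such markers are partly fixed by the gate and are a description only. The 15 macrophage markers summed to 120 and 82.5 CPM, below the 149 and 121 CPM of non-cycling FAPs. Per cell they held 3.96 and 3.11 UMIs, against 1.89 and 1.65. Their log2 ratio was -0.32 and -0.56, but 0.02 and -0.47 against non-cycling FAPs of at least 20000 UMIs, so the direction in Ctrl turned. Endothelial markers summed to 25.5 and 12.2 CPM. The T and NK cell list held 2 and 1 UMIs, the B cell list 2 and 0. MuSC and muscle markers summed to 228 CPM in Ctrl, against 155 CPM in non-cycling FAPs, and to 187 against 183 CPM in dKO, with Vcam1 taking most of the UMIs. Against non-cycling FAPs of at least 20000 UMIs their log2 ratio was 0.32 in Ctrl and -0.18 in dKO. The tenocyte list was at 2092 and 1767 CPM, against 1989 and 1821 CPM, most of it from Thbs4. The Schwann and perineurial list was at 125 and 177 CPM against 56.7 and 89.5 CPM, and the smooth muscle and pericyte list at 67.2 and 68.2 CPM against 76.2 and 66.8 CPM. For the smooth muscle and pericyte list the log2 ratio against non-cycling FAPs of at least 20000 UMIs was 0.61 and 0.53, so its direction in Ctrl turned.

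Cycling FAPs were 5.23% of gated FAPs in Ctrl (45 of 861, exact binomial 3.84 to 6.93) and 4.04% in dKO (37 of 915, 2.86 to 5.53). The difference, dKO minus Ctrl, was -1.18 percentage points (Newcombe interval -3.20 to 0.79, for the counting of cells in these 2 libraries only). With every cell thinned to 5000 UMIs before the rule was applied, the shares were 2.53% and 1.78%, and the difference was -0.76 points (-2.43 to 0.85). Thinning left out 97 Ctrl and 87 dKO gated FAPs that were shallower than that, none of them cycling. Of the cycling FAPs, 15 of the 45 in Ctrl and 9 of the 37 in dKO still met the rule after thinning. Of gated FAPs of at least 20000 UMIs, 18.97% in Ctrl (37 of 195) and 14.93% in dKO (33 of 221) were cycling. The same 6 genes marked 7.65% of gated MO/MPs in Ctrl (108 of 1411) and 5.15% in dKO (52 of 1009), a difference of -2.50 points (-4.43 to -0.50). They marked 27.3% of 110 gated MuSCs in Ctrl and 28.6% of 28 in dKO. Of all cells with 3 or more of the 6 genes, gated FAPs were 17.6% in Ctrl (45 of 255) and 26.6% in dKO (37 of 139), a difference of 8.97 points (0.56 to 17.92). The dKO library held 28 gated MuSCs and 1009 gated MO/MPs, against 110 and 1411 in Ctrl.

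The threshold cut a short tail. In Ctrl, 700, 102 and 14 gated FAPs held 0, 1 and 2 of the 6 genes, and 10, 9, 4 and 22 held 3, 4, 5 and 6. In dKO these counts were 778, 84 and 16, then 5, 4, 6 and 22. Cells with all 6 were 22 of 45 in Ctrl and 22 of 37 in dKO. Just outside the cut, cells with 2 genes had a G2/M list level of 1070 CPM in Ctrl and 1003 CPM in dKO, and just inside it, cells with 3 genes had 2010 and 2337 CPM, against 671 and 647 CPM with none. The lists named here for S and G2/M phase are the Tirosh lists, of which 43 and 49 genes outside the rule were in the data. The rule genes themselves ranged from Ccna2, the cyclin of S and G2 phase, at 125 and 112 CPM to Top2a, the topoisomerase that untangles sister chromatids, at 368 and 420 CPM. Mki67, a coat protein of mitotic chromosomes, was at 339 and 337 CPM and was found in 43 of 45 and 35 of 37 cells. Ube2c, the ubiquitin-conjugating enzyme of the anaphase-promoting complex, was at 346 CPM in Ctrl and 240 CPM in dKO. Mxd3, a MAX-binding repressor that the rule did not use, held 91 UMIs in 24 Ctrl cells and 89 UMIs in 21 dKO cells, against 2 UMIs over 700 and 0 over 778 non-cycling FAPs.

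The cells spread widely over both phase lists. The S list ran from 218 through a median of 1900 to 5858 CPM in single Ctrl cells, and from 255 through 3315 to 5775 CPM in dKO. The G2/M list ran from 218 through 4060 to 16882 CPM in Ctrl and from 1019 through 3247 to 22566 CPM in dKO. The cell with the highest G2/M level of each library had an S level of 1581 CPM in Ctrl and 1712 CPM in dKO, below the median. Spearman's rho between the lists was 0.08 over the 45 Ctrl cells and 0.01 over the 37 dKO cells, given as a description since cells of a library share its depth and preparation.

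**Figure D1:**
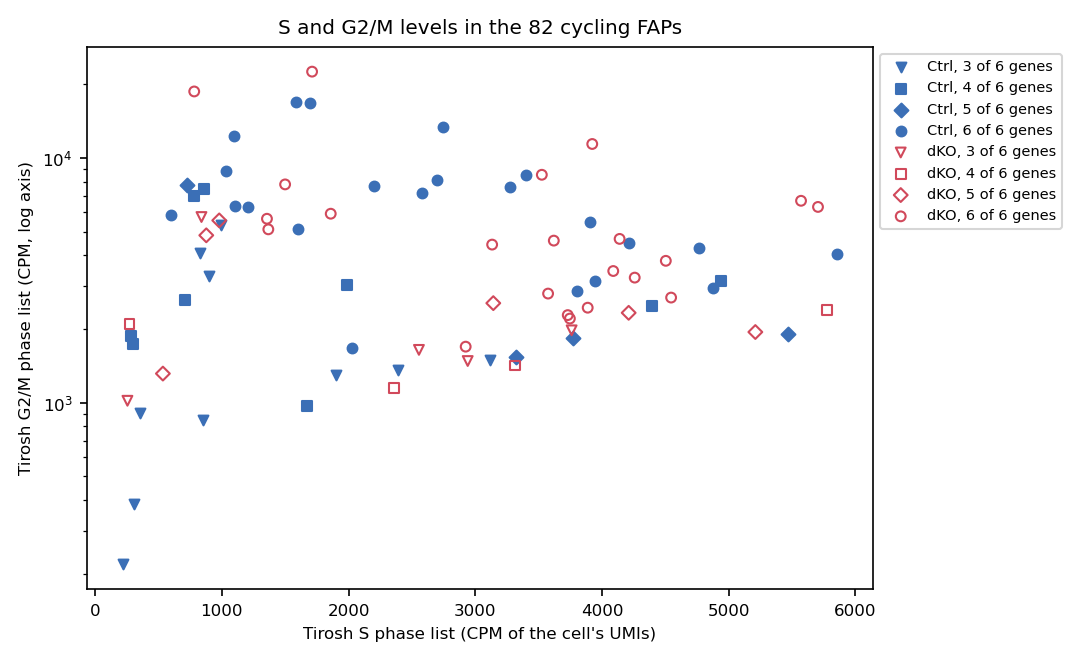
Each point is 1 of the 82 cycling FAPs; the x axis is the summed S phase list and the y axis, on a log scale, the summed G2/M phase list, both as CPM of that cell's UMIs, with the library by colour and the number of rule genes detected by symbol. The 2 libraries overlap, with median S levels of 1900 CPM in Ctrl and 3315 CPM in dKO, and the highest G2/M levels belong to cells with all 6 genes.

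Replication genes were far higher in cycling than in non-cycling FAPs of both libraries. Since the cells were chosen on cell cycle genes this describes them and supports nothing further. The licensing list, the Mcm helicase with Cdt1, Cdc6 and the origin-firing factors, was at 920 CPM against 142 CPM in Ctrl, a ratio of 6.47 (5.99 to 6.98), and at 1375 CPM against 154 CPM in dKO, a ratio of 8.92 (8.34 to 9.53). Its leading genes were the helicase subunits Mcm6 (104 and 156 CPM in cycling FAPs of Ctrl and dKO), Mcm3 (84.0 and 152 CPM) and Mcm7 (89.4 and 110 CPM). The fork and nucleotide supply list was at 2006 CPM in Ctrl and 2481 CPM in dKO, 6.82 and 7.66 times its non-cycling levels. Pcna, the sliding clamp of the polymerases, was at 212 and 264 CPM, Dut, which keeps uracil out of DNA, at 214 and 259 CPM, and Tyms, the thymidylate synthase, at 158 and 170 CPM. The replication stress and repair list was 5.73 and 7.73 times higher, led by Usp1, Atad2 and Rad51ap1.

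The replication-dependent histones were at 532 CPM in Ctrl and 875 CPM in dKO, against 116 and 125 CPM. The linker histone gene Hist1h1b was at 134 CPM in 17 of 45 Ctrl cells and at 278 CPM in 16 of 37 dKO cells, and Hist1h2ae at 116 and 238 CPM in 14 and 15 cells. The log2 ratios of the list, 2.20 and 2.81, were 0.81 and 0.80 without the cells marked by the doublet score. Histone genes of one cluster are near-identical copies, so reads may be split among them, and most of their transcripts lack a poly(A) tail.

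Mitotic genes included the lists with the largest ratios, those of the kinetochore and of the kinases and cyclins. The kinetochore and centromere list was at 1431 CPM in Ctrl and 1359 CPM in dKO, 46.3 (40.8 to 52.7) and 51.4 (45.3 to 58.5) times the non-cycling level. Cenpf, a kinetochore protein, held 385 UMIs in 30 Ctrl cells and 363 UMIs in 26 dKO cells, and the centromeric histone Cenpa 338 and 191 UMIs in 27 and 18 cells. The list of mitotic kinases and cyclins was 24.6 and 26.6 times higher, with the B cyclins Ccnb2 at 147 and 91.1 CPM and Ccnb1 at 91.4 and 62.4 CPM. Spindle genes were 8.46 and 8.05 times higher, led by the tubulins Tubb5 (1419 and 1593 CPM) and Tuba1b (1037 and 1118 CPM) and by Stmn1, a tubulin-binding protein (528 and 521 CPM against 10.8 and 6.4 CPM). Condensin and chromatin proteins, with the variant histone H2afz at 1565 and 1491 CPM and Hmgb2 at 483 and 382 CPM, were 4.68 and 4.59 times higher. The anaphase and cytokinesis list, with the ubiquitin enzyme Ube2s and the CDK subunits Cks2 and Cks1b, was 8.81 times higher in Ctrl and 6.49 times in dKO. Without the cells marked by the doublet score the log2 ratio in Ctrl and dKO went from 5.53 and 5.68 to 4.76 and 4.86 for the kinetochore, from 4.62 and 4.73 to 3.83 and 4.02 for the kinases and cyclins, and from 3.14 and 2.70 to 2.54 and 2.21 for anaphase, all still above 0. The Tirosh G2/M list went from 3.08 and 2.89 to 2.38 and 2.29.

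Across all genes outside the rule and gate, 513 of 6250 genes with at least 50 UMIs in cycling FAPs were at least 2-fold higher than in non-cycling FAPs in both libraries, 8.21%. Of the 217 genes of the 12 cell cycle lists, 178 had enough UMIs, and 164 of these were among the 513. Genes at least 2-fold lower in both libraries were 312 of 6017, 5.19%, and 0 of them were in the cell cycle lists. The median log2 ratio of the genes tested for being higher was 0.18 in Ctrl and 0.19 in dKO. Against only the 107 Ctrl and 143 dKO non-cycling FAPs of at least 20000 UMIs, 374 genes were higher, 353 of them also among the 513, and 106 were lower, 96 of them among the 312. Without the cells marked by the doublet score 339 were higher, of which 305 were shared with the 513.

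**Figure D2:**
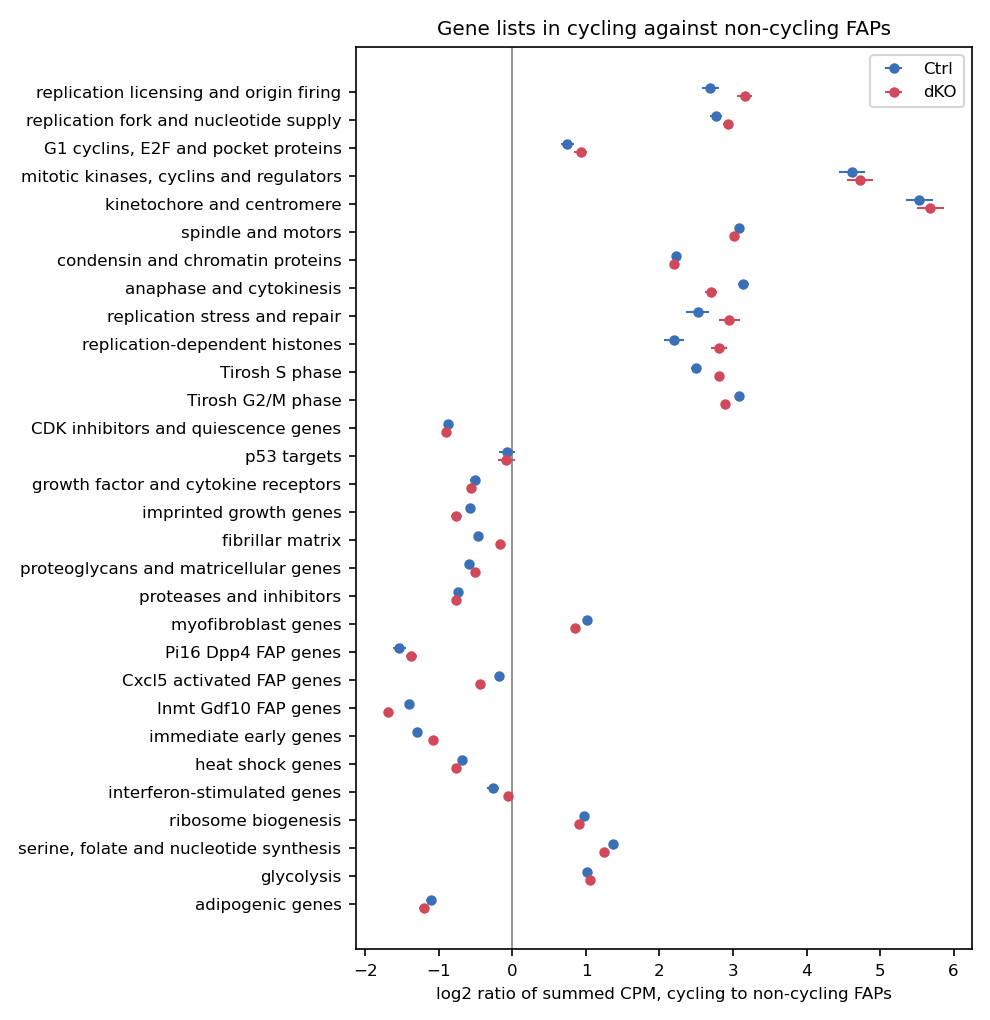
The x axis is the log2 ratio of a list's summed CPM in cycling to non-cycling FAPs, with Ctrl and dKO in 2 colours; each row is a list, and bars are 95% counting intervals, often narrower than the point. The cell cycle lists lie between 0.75 and 5.68, while lists of FAP states and immediate early genes lie below 0.

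Many mitotic promoters carry a cell cycle genes homology region (CHR) with CCAAT boxes nearby, the layout at which the DREAM and MMB-FOXM1 complexes act. The promoters of the 4 genes of the mitosis, replication and Tirosh lists outside the rule with most UMIs that held both strings of letters in the 250 bases before the transcript start are shown because they let a reader see both strings in genes of these lists. The sequences are from RefSeq on build GRCm38.p6, 5′ to 3′ on the strand of the gene, with capitals for TTTGAA (CHR) and CCAAT, which on the opposite strand read TTCAAA and ATTGG. Hmgb2, an HMG-box chromatin protein, lies on the plus strand of chr8:57511593-57511842, Tubb4b, a beta-tubulin, on the minus strand of chr2:25224703-25224952, H2afv, a variant histone listed by RefSeq as H2az2, on the minus strand of chr11:6444444-6444693, and Smc2, a condensin subunit, on the plus strand of chr4:52438971-52439220.
Hmgb2: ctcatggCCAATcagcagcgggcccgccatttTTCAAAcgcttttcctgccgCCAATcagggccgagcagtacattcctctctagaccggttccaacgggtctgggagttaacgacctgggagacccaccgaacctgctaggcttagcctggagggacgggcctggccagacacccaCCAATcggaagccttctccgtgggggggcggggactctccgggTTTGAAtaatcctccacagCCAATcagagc
Tubb4b: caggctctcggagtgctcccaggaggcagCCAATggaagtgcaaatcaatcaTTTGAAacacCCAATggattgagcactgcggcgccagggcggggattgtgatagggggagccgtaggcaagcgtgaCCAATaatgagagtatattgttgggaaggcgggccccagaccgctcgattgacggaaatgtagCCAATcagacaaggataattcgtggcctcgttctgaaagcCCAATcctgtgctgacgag
H2afv: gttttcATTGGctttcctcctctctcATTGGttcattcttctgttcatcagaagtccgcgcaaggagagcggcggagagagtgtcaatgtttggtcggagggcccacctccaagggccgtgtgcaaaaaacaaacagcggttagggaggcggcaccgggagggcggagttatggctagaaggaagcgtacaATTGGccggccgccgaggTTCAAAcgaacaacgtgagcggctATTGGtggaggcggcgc
Smc2: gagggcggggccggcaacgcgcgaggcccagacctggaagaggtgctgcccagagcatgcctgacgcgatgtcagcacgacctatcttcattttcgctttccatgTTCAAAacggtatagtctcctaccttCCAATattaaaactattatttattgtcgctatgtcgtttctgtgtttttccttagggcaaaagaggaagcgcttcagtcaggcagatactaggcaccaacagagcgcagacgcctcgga
In these windows Hmgb2 held 2 CHR strings, 30 to 25 and 218 to 213 bases before the start, and 4 CCAAT strings. Tubb4b held 1 and 5, with the CHR 198 to 193 bases before the start, and H2afv 1 and 4, with the CHR 41 to 36 bases before it. Smc2 held 1 and 1, with the CHR 145 to 140 bases before the start and the CCAAT string nearer to it, at 119 to 115. The distance of the CHR from the start thus differed among the genes. Of 32851 promoters in the table, 16.0% held the CHR letters, 33.8% CCAAT and 5.55% both. Among the 85 matched genes of the 5 mitosis lists outside the rule, 32.9% held CHR, 69.4% CCAAT and 25.9% both. The lists differed: CHR was held by 39.1% of the spindle, 56.2% of the condensin and chromatin and 47.1% of the anaphase genes, but by 1 of 15 kinetochore genes (6.67%) and 1 of 14 kinases and cyclins (7.14%). Both strings were also held by 54.5% of the 11 matched replication-dependent histones and 28.6% of the 14 matched G1 genes, so the layout was not particular to the mitosis lists. Among the 50 matched genes of the 3 replication lists the shares were 16.0%, 54.0% and 10.0%, and 26.0% held TTCCCGC, an E2F-type string found in 3.82% of all promoters and 7.06% of the mitosis genes. Among the 5074 matched genes tested between cycling and non-cycling FAPs, 12.6% held CHR, 40.3% CCAAT, 4.85% both and 9.01% the E2F-type string. Genes with more than 1 promoter in the table count as holding a string where any of them did, and by gene 6.45% of all 27025 symbols held both and 4.38% the E2F-type string. A match is a run of letters only and says nothing about binding in these cells.

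Ordering the 82 cells by their ratio of S to G2/M list UMIs gave an early, a middle and a late set. The early set (27 cells, 12 from Ctrl and 15 from dKO) had the most S list UMIs for its G2/M list UMIs, and the late set (27 cells, 17 and 10) the fewest. The licensing list went from 1623 CPM in the early through 1286 CPM in the middle to 404 CPM in the late set. The histones were highest in the middle set, at 1282 CPM against 463 and 196 CPM. The middle set also had the most cells with all 6 genes, 21 against 10 and 13, as had nearly all cells marked by the doublet score. Most of the histone excess over non-cycling FAPs was lost without those cells, and levels of the sets without them are not given. The kinetochore list went from 544 through 1364 to 2401 CPM and the anaphase list from 834 through 2022 to 3424 CPM. These lists share genes with those used for the order, and without the shared genes the late to early log2 ratio was -1.78 for licensing, 0.96 for the kinetochore and 1.85 for anaphase. Ribosome biogenesis, which shares none, went from 5523 to 2804 CPM, and the fibrillar matrix list from 34550 to 50071 CPM.

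Outside the Tirosh lists the genes highest in the late over the early set included the phosphatase Cdkn3 (185 against 5.3 CPM), the B cyclin Ccnb1 (203 against 7.42 CPM), the spindle pole gene Aspm (122 against 5.3 CPM) and the imprinted noncoding RNA H19 (750.3 against 33.9 CPM, over 51 cells). The collagenase Mmp13 came first by its ratio, but 1 cell held all of its UMIs. At the other end, Mcm3 was at 14.3 CPM in the late and 194 CPM in the early set, over 55 cells. The chemokine Ccl20, the cytokine Il11, the matricellular Spp1 and the growth factor Ereg also had more UMIs in the early than in the late set, with 91.8%, 47.2%, 54.8% and 72.1% of their UMIs in a single cell, and Ereg was highest in the middle set.

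**Figure D3:**
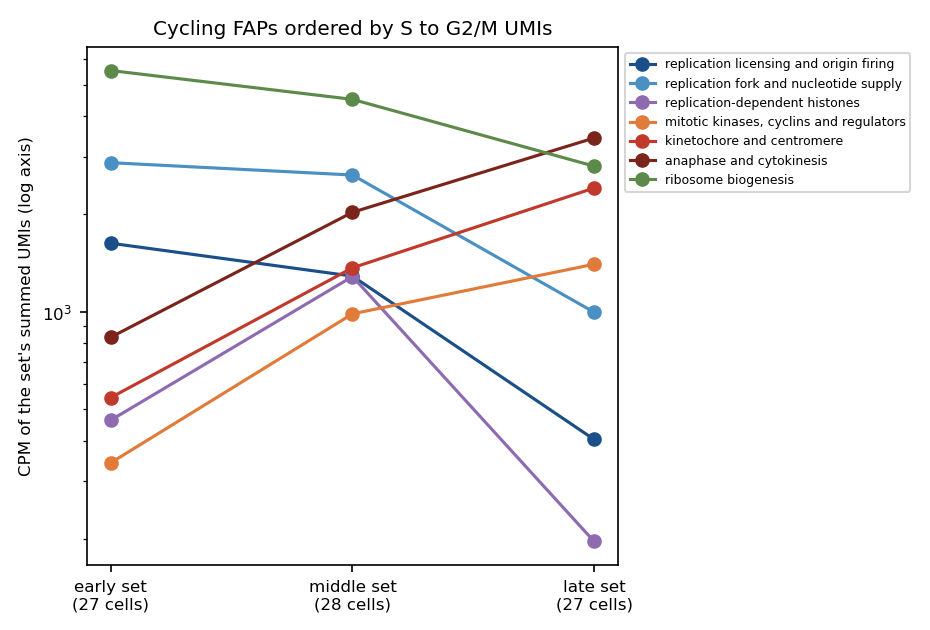
The x axis is the early, middle or late set of the 82 cycling FAPs, ordered from high to low S to G2/M list UMIs, and the y axis, on a log scale, the summed CPM of each list over the cells of that set; points are joined to follow a list. Replication lists and ribosome biogenesis are lowest in the late set, histones peak in the middle set and mitotic lists are highest in the late set. The order itself used part of these genes, and the cells marked by the doublet score are included.

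Entry genes of G1 were uneven. The G1 list was 1.68 (1.58 to 1.78) times higher in cycling FAPs of Ctrl and 1.90 (1.79 to 2.01) times in dKO, and 7 of its 13 tested members were at least 2-fold higher in both libraries, against 8.21% of all tested genes. Cdk4, the kinase partner of the D cyclins, was at 251 and 250 CPM against 104 and 99.1 CPM, and Ccnd1 (cyclin D1) at 159 and 176 CPM against 48.1 and 45.7 CPM. Ccnd2 (cyclin D2) was at 82.7 and 110 CPM against 121 and 123 CPM, and Myc at 92.8 and 103 CPM against 115 and 128 CPM, so that neither was higher in cycling FAPs. Among CDK inhibitors, Cdkn1c (p57) was lower in both libraries (94.8 against 236 CPM and 25.1 against 119 CPM), while Cdkn2c (p18, 65.9 against 14.3 CPM and 56.7 against 13.1 CPM) and Cdkn2d (p19) were higher. Of the 16 tested members of the CDK inhibitor and quiescence list, 2 were 2-fold lower and 2 higher, against 5.19% and 8.21% of all genes. The p53 target list was at 518 and 514 CPM against 547 and 545 CPM, with 0 of 8 members past 2-fold either way. Members given as examples from a list, beyond the 3 with most UMIs of each cell cycle list, were chosen after their values were seen.

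Biosynthesis lists were higher in cycling FAPs. The serine, folate and nucleotide list was 2.59 (2.49 to 2.68) and 2.37 (2.28 to 2.45) times higher, with 11 of 18 tested members at least 2-fold higher in both libraries (8.21% of all genes were), among them Phgdh, the entry enzyme of serine synthesis (118 and 123 CPM against 44.8 and 43.3 CPM), Shmt2 of mitochondrial folate metabolism, and Nme1, a nucleoside diphosphate kinase. Glycolysis was 2.02 and 2.07 times higher, with 8 of 15 members past 2-fold, such as Eno1 (360 and 428 CPM against 121 and 142 CPM) and Pgam1 (432 and 499 CPM against 154 and 188 CPM). Ribosome biogenesis was 1.96 and 1.87 times higher, with 2 of 17 members, Npm1 and Nhp2, past 2-fold, a share close to that 8.21%. Against non-cycling FAPs of at least 20000 UMIs these ratios were smaller, at log2 1.02 and 0.81 for the serine list, 0.58 and 0.62 for glycolysis and 0.62 and 0.50 for ribosome biogenesis.

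Genes of established FAP states were lower in cycling FAPs. The list of Pi16 and Dpp4 FAPs, a stem-like adventitial state, was at 756 and 1086 CPM against 2199 and 2816 CPM, with 6 of 9 tested members at least 2-fold lower in both libraries, against 5.19% of all tested genes, and 0 higher. The list of Inmt and Gdf10 FAPs was at 2675 and 2095 CPM against 7087 and 6774 CPM, with 10 of 12 members lower. Smoc2, a calcium-binding matrix protein, was at 561 and 366 CPM against 1320 and 820 CPM, and Myoc at 135 and 63.8 CPM against 463 and 589 CPM. The list of Cxcl5 activated FAPs differed less, at 10540 and 14308 CPM against 11998 and 19377 CPM, with 0 of 14 members past 2-fold in both libraries. Its log2 ratios of -0.19 and -0.44 became 0.09 and -0.29 without the cells marked by the doublet score, so its direction in Ctrl turned. Its chemokine Ccl2 was at 2289 and 2324 CPM against 1191 and 1446 CPM, and its metallothionein Mt1 at 1344 and 2084 CPM against 2727 and 3933 CPM. Deep non-cycling FAPs narrowed the gap for the Pi16 and Inmt lists: against them the log2 ratio was -0.90 and -0.65 for the Pi16 list and -0.67 and -1.0004 for the Inmt list, where it was -1.54 and -1.37, and -1.41 and -1.69, against all. For the Cxcl5 list it was -0.30 and -0.55 against deep cells, farther from 0.

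Matrix genes differed in both directions, and the counts of members below stand beside 8.21% of all tested genes higher and 5.19% lower. The 25 fibrillar matrix genes summed to 44089 CPM in Ctrl and 43233 CPM in dKO cycling FAPs, against 60909 and 48795 CPM, ratios of 0.724 (0.718 to 0.730) and 0.886 (0.879 to 0.894). Per cell they held 1457 and 1629 UMIs, against 774 and 661 in non-cycling FAPs. Col3a1 (collagen III) was at 8954 and 8217 CPM against 15244 and 11618 CPM, while Col1a1 (collagen I) was at 4613 and 4556 CPM against 6428 and 4564 CPM. Only Tnc, the injury-associated tenascin C, was at least 2-fold higher in both libraries (492 and 482 CPM against 228 and 221 CPM), and only Col14a1 at least 2-fold lower (206 and 188 CPM against 476 and 445 CPM). The proteoglycan and matricellular list was 0.664 and 0.703 of the non-cycling level with 8 of 20 members lower, among them Eln (elastin, 112 and 155 CPM against 692 and 830 CPM) and Ogn. Of 18 proteases and inhibitors 7 were lower, such as the gelatinase Mmp2 (239 and 234 CPM against 989 and 867 CPM) and the complement inhibitor Serping1. Myofibroblast genes ran the other way, at 2271 and 2154 CPM against 1126 and 1196 CPM, with 5 of 13 members higher and 1, Tgfbi, lower. Acta2 (smooth muscle actin) was at 233 and 121 CPM against 37.7 and 22.9 CPM, Tpm2 at 293 and 172 CPM against 71.6 and 62.3 CPM, and Ltbp2, a TGF-beta-binding matrix protein, at 311 and 205 CPM against 69.6 and 65.4 CPM. Against deep non-cycling FAPs the log2 ratio of this list was 0.40 and 0.15, from 1.01 and 0.85.

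Immediate early genes, which respond to stimulation and also to tissue dissociation, summed to 6906 and 7593 CPM against 17036 and 16090 CPM, with 9 of 16 members lower, against 5.19% of all tested genes, and 0 higher. Fos was at 629 and 742 CPM against 1931 and 1709 CPM, and Egr1 at 1086 and 1058 CPM against 3069 and 2823 CPM. Heat shock genes were at 20122 and 18185 CPM against 32253 and 30972 CPM, with 3 of 12 members lower by that fold. In single cells the immediate early list ran from 716 through a median of 5622 to 27914 CPM in Ctrl cycling FAPs, inside the range of the non-cycling FAPs.

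Outside the cell cycle lists, the genes with the highest ratios included several known to act in division. Pclaf, a PCNA-binding factor, held 475 UMIs in 41 of 45 Ctrl cells and 565 UMIs in 35 of 37 dKO cells, against 16 and 7 UMIs over all non-cycling FAPs, a log2 ratio of 7.47 (6.76 to 8.29) and 9.25 (8.20 to 10.57). Diaph3, a formin, was at 90.1 and 105 CPM against 0.79 and 1.14 CPM, and Esco2, the cohesin acetyltransferase, at 47.7 and 58.8 CPM against 0.45 and 0.19 CPM. The kinetochore gene Ska1 held 59 and 39 UMIs against 2 and 1, with log2 intervals of 5.55 to 10.54 and 5.64 to 13.54. Prr11, Iqgap3, Shcbp1 and Depdc1a had 1 to 3 UMIs over the non-cycling FAPs of a library, or 0 for Depdc1a in dKO, and 27 to 59 in the cycling FAPs. The histone genes Hist1h2ao and Hist1h2ab were also in this set, found in 23 and 21 and in 11 and 11 cells. Without the cells marked by the doublet score the log2 ratios of Hist1h2ab went from 6.72 and 8.80 to 4.63 and 6.33 and those of Hist1h2ao from 7.31 and 9.27 to 6.39 and 7.68. Ska1, Prr11, Iqgap3, Shcbp1, Esco2 and, in Ctrl, Depdc1a also moved by over 1.5 times without them, to between 5.80 for Esco2 and 7.46 for Depdc1a in Ctrl and between 6.19 for Shcbp1 and 7.43 for Ska1 in dKO. Against deep non-cycling FAPs the log2 ratio was 6.36 and 8.999 for Pclaf and 5.99 and 5.63 for Diaph3, and in Ctrl 5.81 for Ska1, 5.79 for Prr11, 6.08 for Esco2 and 6.81 for Depdc1a. Those deep cells held 0 UMIs of Iqgap3 in Ctrl and of Ska1, Prr11, Esco2, Hist1h2ab and Depdc1a in dKO.

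The genes at the low end included members of the FAP state lists. Pi16, a peptidase inhibitor of the stem-like state, was at 24.2 and 39.5 CPM against 527 and 645 CPM, and was found in 16 of 45 and 15 of 37 cells. Inmt, a methyltransferase, held 5 and 1 UMIs, each from 1 cell, against 75.9 and 69.8 CPM. Apod, a lipocalin, was at 134 and 151 CPM against 1367 and 1701 CPM, a log2 ratio of -3.35 (-3.56 to -3.15) and -3.49 (-3.69 to -3.29). Lbp, the LPS-binding protein, was at 22.9 and 29.4 CPM against 206 and 252 CPM. The complement gene C7 (3.36 and 2.87 CPM against 28.6 and 42.2 CPM), the opioid precursor Penk, the collagen Col6a6, the neurotrophin receptor Ntrk2 and the lipase inhibitor G0s2 were also in this set. Against deep non-cycling FAPs all of these stayed below 0 in both libraries, most of them closer to it. The log2 ratio of Apod was then -1.93 and -2.11 and that of Pi16 -3.47 and -2.89. In Ctrl, Inmt went from -4.50 to -1.61, C7 from -3.09 to -1.34, Ntrk2 from -3.01 to -1.31 and Penk from -3.77 to -2.22. Lbp went there from -3.17 to -2.03, G0s2 from -2.79 to -1.67 and Col6a6 from -4.22 to -3.53. In dKO, Inmt went from -6.60 to -4.14, Ntrk2 from -5.49 to -4.05 and C7 from -3.88 to -2.51. Col6a6 went in dKO from -3.14 to -2.14, Lbp from -3.10 to -2.31 and Penk from -4.56 to -3.87, while G0s2 moved farther, from -3.65 to -3.90. When the cells marked by the doublet score were left out, Inmt and Ntrk2 held 0 UMIs in dKO and Lbp there went from -3.10 to -3.81. In Ctrl, Penk went to -4.54, Inmt to -3.86, Col6a6 from -4.22 to -3.58 and C7 to -2.44.

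**Figure D4:**
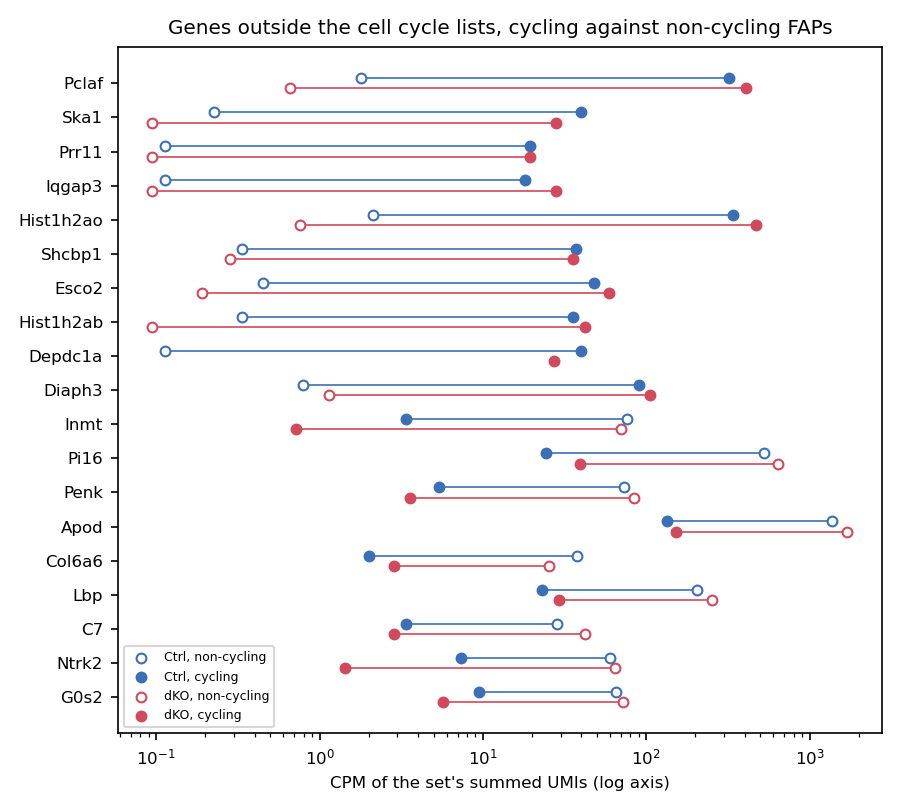
The x axis, on a log scale, is the CPM of each gene's UMIs summed over a set of cells; open points are non-cycling and filled points cycling FAPs, with Ctrl and dKO in 2 colours, and no open point is drawn for Depdc1a in dKO, where it held 0 UMIs. Pclaf and the other 9 genes at the top lie to the right in cycling FAPs, and Apod, Pi16 and the other 7 at the bottom to the left.

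Cycling FAPs and cycling MO/MPs, chosen on the same 6 genes, were set side by side. The S list stood at 2375 CPM in FAPs and 2411 CPM in MO/MPs of Ctrl, and at 3213 and 2135 CPM in dKO. The kinetochore list was at 1431 and 1135 CPM in Ctrl and at 1359 and 1287 CPM in dKO. The G2/M list was at 5659 and 5558 CPM in Ctrl and 4816 and 6198 CPM in dKO. Condensin and chromatin genes were lower in FAPs, by log2 ratios of -0.30 and -0.37, and the anaphase list stood at 0.31 in Ctrl and -0.10 in dKO. Single members are given next. Higher in FAPs of both libraries were Mxd3 (61.2 against 14.1 CPM in Ctrl, 63.8 against 10.3 CPM in dKO), Myc (92.8 against 22.4 CPM and 103 against 13.3 CPM), Ccnd2, Anln, a furrow protein (125 against 42.2 CPM and 104 against 45.1 CPM), and the repressor E2f7 (15.5 against 7.48 CPM and 17.9 against 3.08 CPM). Lower in FAPs were E2f2 (8.74 against 40.5 CPM and 8.61 against 34.9 CPM), Hist1h2bc, Wdr76, Gas2l3 and the pocket protein gene Rb1. Ribosome biogenesis was higher in cycling FAPs by a log2 ratio of 0.46 (0.41 to 0.51) in Ctrl and 1.13 (1.05 to 1.20) in dKO. The single members named here, condensin and chromatin genes and ribosome biogenesis had the same direction in both libraries. Opposite signs in Ctrl and dKO were seen for the S list (-0.02 and 0.59), the G2/M list (0.03 and -0.36) and the anaphase list. With 1 library of each genotype no test was made.

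Between genotypes, the cycling FAPs of dKO had higher sums of the S phase list and lower sums of the G2/M list. The S list was at 3213 CPM in dKO and 2375 CPM in Ctrl, a log2 ratio of 0.44 (0.37 to 0.50), with 36 of its 40 tested members higher in dKO, though 3 by 2-fold. The G2/M list was at 4816 and 5659 CPM, a log2 ratio of -0.23 (-0.28 to -0.19), which was -0.07 as a mean of each cell's own CPM. In non-cycling FAPs the ratios were 0.12 and -0.05. The licensing list had a ratio of 0.58 with 17 of 17 members higher, the histone list 0.72, which was 0.06 without the cells marked by the doublet score, and the anaphase list -0.37. The other mitosis lists lay nearer 0, at -0.07 (-0.16 to 0.02) for the kinetochore, -0.10 (-0.22 to 0.01) for the kinases and cyclins, -0.03 (-0.08 to 0.02) for the spindle and -0.10 (-0.14 to -0.06) for condensin and chromatin. Over all genes with at least 40 UMIs in the cycling FAPs of both libraries together, 109 of 6928 were at least 2-fold higher in dKO, 1.57%, and 80 were at least 2-fold lower, 1.15%, with a median log2 ratio of -0.02. The early set held 12 Ctrl and 15 dKO cells, but the sets were ordered by the S and G2/M lists, so these counts restate the ratios. They are no separate measure of the mix of phases, whose part in the ratios was not tested.

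Interferon-stimulated genes were higher in the dKO library. The list was at 2596 CPM in dKO and 965 CPM in Ctrl cycling FAPs, a ratio of 2.69 (2.53 to 2.86), beside 2712 and 1155 CPM, a ratio of 2.35, in non-cycling FAPs. Of its 27 tested members 26 were higher in dKO and 18 by at least 2-fold, against the 1.57% of all genes. In single cells the list ran from 0 through a median of 705 to 3776 CPM in Ctrl and from 365 through 1551 to 19459 CPM in dKO, so the libraries overlapped. One dKO cell held 988 UMIs of the list, 27.3% of its library's sum, and without the highest cell of each library the levels were 1958 and 844 CPM, a log2 ratio of 1.21 in place of 1.43. Isg15, a ubiquitin-like modifier, was at 268 CPM in dKO and 34.3 CPM in Ctrl, Bst2 (tetherin) at 560 and 196 CPM, and the chemokine Cxcl9 at 189 and 18.8 CPM. Ifih1, an RNA sensor, went the other way, at 16.5 and 20.2 CPM. Isg15 and Cxcl9 are not among the genes named by rule in the next paragraph, although their ratios were larger. That rule asked for a UMI in 20% of cells and no cell with over 25% of a gene's UMIs. A few cells may thus carry the contrasts of Isg15 and Cxcl9, whose numbers of cells are not given.

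The 8 genes highest in dKO over Ctrl by the rule for named genes are known to respond to interferon. Irf7, the regulator of type I interferon genes, was at 84.7 CPM in 28 dKO cells and 12.1 CPM in 11 Ctrl cells, a log2 ratio of 2.81 (2.08 to 3.61), beside 1.92 in non-cycling FAPs. Ifi27l2a was at 912 and 212 CPM, a log2 ratio of 2.11 (1.93 to 2.29), beside 1.56. Zbp1, a sensor of Z-form nucleic acid, Trim30a, Apol9b, Oasl2, Parp14 and Oas1a had log2 ratios from 2.20 to 1.84, beside 1.78 for Apol9b to 1.14 for Oas1a in non-cycling FAPs. The genes were chosen on their ratio in cycling FAPs, so no more is read from its being the larger. Without the cells marked by the doublet score the ratio of Oas1a was 1.02. The S and G2/M lists and these genes come from the same cells, and 1 library per genotype means that genotype, mice and library preparation cannot be told apart.

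The 8 genes lowest in dKO by the same rule had few UMIs. Kdm6a, an X-linked histone demethylase, held 40 UMIs in Ctrl and 11 in dKO, a log2 ratio of -1.77 (-2.88 to -0.78), beside -0.25 in non-cycling FAPs. Scai, Msc, Ggcx, 1500009L16Rik, Cyp39a1, Fubp3 and Parpbp held 32 to 52 UMIs in Ctrl and 9 to 17 in dKO, with log2 ratios from -1.95 to -1.45. Of these, Msc, a bHLH repressor, also had a ratio of -1.12 in non-cycling FAPs, where the others lay between -0.59 and -0.17, apart from Parpbp with 1 and 3 UMIs there. Without the cells marked by the doublet score the ratio of Ggcx was -2.71 and that of 1500009L16Rik -2.43.

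Imprinted growth genes were lower in dKO, at 1191 CPM against 1940 CPM in cycling FAPs, a ratio of 0.614 (0.578 to 0.652), and at 2022 against 2890 CPM in non-cycling FAPs. Of 10 tested members 0 were higher in dKO and 5 were at least 2-fold lower, against the 1.15% of all genes. Cdkn1c was at 25.1 CPM in dKO and 94.8 CPM in Ctrl, a log2 ratio of -1.92 (-2.49 to -1.37), beside -0.98 in non-cycling FAPs. The noncoding RNA H19 was at 193 and 491 CPM, Mest at 46.6 and 116 CPM, the Notch ligand-like Dlk1 at 13.6 and 41.7 CPM, and Peg3 at 25.8 and 68.6 CPM. Cdkn1c and Dlk1 were not among the genes named by rule as lowest in dKO, although their ratios lay within the range of those. That rule asked for a UMI in 20% of cells and no cell with over 25% of a gene's UMIs. A few cells may thus carry the contrasts of Cdkn1c and Dlk1, whose numbers of cells are not given here. H19 was also highest in the late set of the cells, of which 17 were from Ctrl and 10 from dKO. Fibrillar matrix sums were nearly equal in the cycling FAPs of the genotypes (log2 ratio -0.03, -0.04 to -0.01) but lower in dKO among non-cycling FAPs (-0.32); without the cells marked by the doublet score the ratio in cycling FAPs was -0.24. The list of Cxcl5 activated FAPs was higher in dKO by 0.44 in cycling and 0.69 in non-cycling FAPs, with Prg4 (lubricin) at 2273 and 729 CPM in cycling cells.

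**Figure D5:**
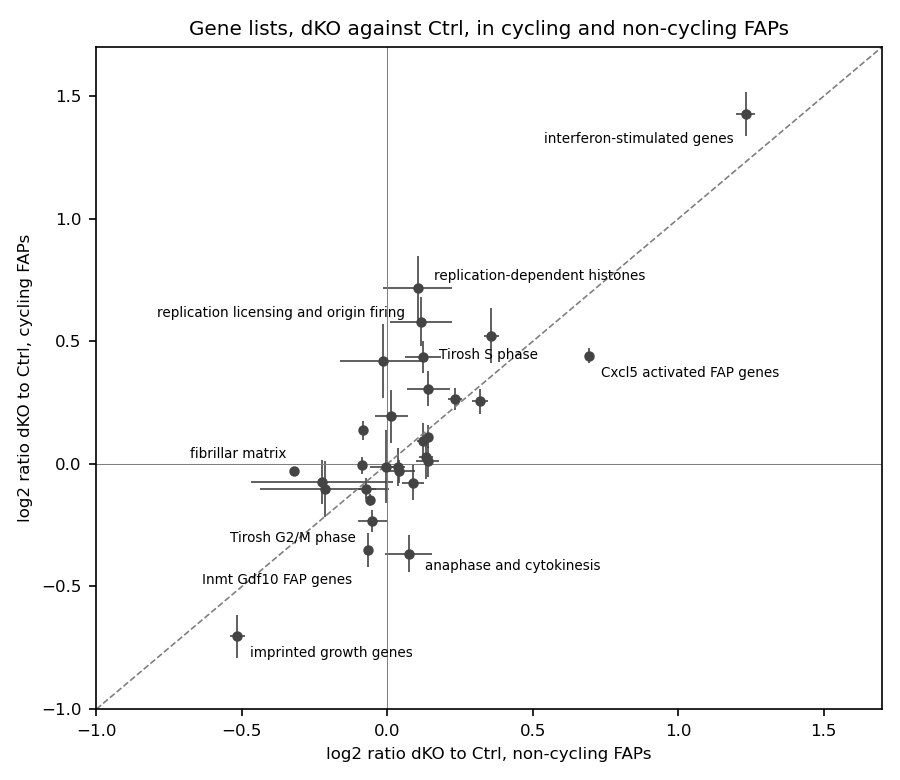
The x axis is the log2 ratio of a list's summed CPM in dKO to Ctrl non-cycling FAPs and the y axis the same in cycling FAPs; each point is a list, bars are 95% counting intervals and the dashed line marks equal ratios. The interferon list lies at 1.23 and 1.43, imprinted genes at -0.52 and -0.70, the replication fork list at 0.14 and 0.31 and the licensing list at 0.12 and 0.58.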

How the data were processed

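Single-cell suspensions of sorted live mononuclear cells from hind limb muscle were sequenced as 1 library per genotype, Ctrl and dKO. The values in the deposited matrices are raw UMI counts, made by the authors with Cell Ranger on mm10. The submitters' processing notes name Seurat 4.3.0 and Cell Ranger 7.0.0, while the file headers name Cell Ranger 3.0.2. The matrices hold 24984 genes, 0 of them mitochondrial, and per the labels the molecule is cytoplasmic RNA. The study's methods name a filter of 500 features, used here, while its results name a filter of 200 genes, tried as an alternative. The 4335 Ctrl and 3329 dKO cells with 500 genes are as many as the study kept once its own doublet step was done. This match does not show whether doublets had been taken out of the deposited cells. Marking 7.5% of cells by a nearest-neighbour score among simulated doublets was tried as an alternative.

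The members, the 42 gene lists and the comparisons were chosen with earlier results of these data known. UMIs were summed over the cells of a set and given as CPM. With 1 library per genotype no test was run. Intervals are 95% and exact for sums and shares (Poisson, binomial), conditional exact for ratios and Newcombe for differences of shares. UMIs within a cell share its capture, so intervals cover counting error only. A ratio against a set at 0 used 3 counts. Rule genes were left out of lists. Named genes were the 10 highest and 10 lowest by the smaller of the library log2 ratios, cycling to non-cycling, outside the cell cycle lists (at least 50 UMIs, found or expected, and a UMI in 20% of cells), the 3 members of each cell cycle list with most UMIs, the 8 highest and 8 lowest dKO to Ctrl (at least 40 UMIs, a UMI in 20% of cells and no cell with over 25%), the 5 at each end between cycling FAPs and MO/MPs (at least 30 UMIs) and between early and late cells outside the Tirosh lists, and 4 promoters. One of the 10 lowest is not reported here. MO/MPs were gated on Ptprc with at least 2 of Csf1r, Adgre1, C1qa, Lyz2 and Cd68 and 0 of Pdgfra, and MuSCs on at least 2 of Pax7, Myf5, Myod1, Chodl and Cdh15 with 0 of Pdgfra and Ptprc. Python 3.11.15, numpy 2.4.6, scipy 1.17.1, pandas 2.3.3 and scikit-learn 1.9.0 were used.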

Additional observations from a re-analysis of the deposited data

Results flagged for a closer look

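Fubp3, a far upstream element binding protein gene, had opposite directions in the libraries. It was higher in cycling than in non-cycling FAPs of Ctrl by a log2 ratio of 0.52 (35.0 against 24.4 CPM) and lower in those of dKO by -0.83 (12.2 against 21.7 CPM), from 52 and 17 UMIs in cycling cells. The difference was not tested. The gene is 1 of the 8 chosen as lowest in dKO against Ctrl cycling FAPs, a choice that favours such a pattern. Kdm6a (0.46 and -1.06), Scai (0.16 and -1.35), Ggcx (0.16 and -1.25) and 1500009L16Rik (0.11 in Ctrl and below 0 in dKO) had the same signs, with counting intervals in Ctrl that held 0.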

How the results depend on the processing

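Of 71 alternative values, 41 moved by less than the counting interval (or 1.5 times for a count), 30 moved by more and 0 turned in sign. The cycling share of gated FAPs was 2.53% in Ctrl and 1.78% in dKO with cells thinned to 5000 UMIs, and in dKO 5.79% with at least 2 of the 6 genes and 2.84% with the cells marked by the doublet score removed. The S list, dKO to Ctrl, had a log2 ratio of 0.36 with at least 4 genes and 0.33 with marked cells removed. The G2/M list had -0.30 with at least 2 genes, -0.31 with at least 4, -0.13 with marked cells removed and -0.068 as a mean of each cell's own CPM. The interferon list had 1.11 with at least 2 genes, 1.16 with marked cells removed and 1.66 without its most abundant gene. The fibrillar matrix list, cycling to non-cycling, had in Ctrl and dKO -0.41 and -0.12 with at least 2 genes, -0.50 and -0.15 with at least 4, -0.51 and -0.41 with marked cells removed, -0.22 and -0.12 as a mean of cell CPM, -0.48 and -0.22 scaled to the median gene, -0.38 and -0.086 without its most abundant gene, and -0.67 and -0.28 against non-cycling FAPs of at least 20000 UMIs, an alternative chosen after seeing the data. In Ctrl it had -0.51 with Dcn at 2 UMIs or more and -0.49 against all gated FAPs under 3 genes. With marked cells removed, 339 genes were at least 2-fold higher, against 513. The causes of these shifts were not tested. No paired analysis was possible because each group is 1 library. With 82 cells, shares and low counts carry wide intervals, and nothing here measures the spread between mice.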

Other observations

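Some lists fixed for other cells or fates also differed. Adipogenic genes were lower in cycling FAPs, at 1304 and 1331 CPM against 2802 and 3069 CPM in Ctrl and dKO, with Lpl (lipoprotein lipase, 156 and 86.8 CPM against 711 and 628 CPM) and Cebpd 2-fold lower in both libraries among 6 tested members. Growth factor and cytokine receptors were at 1868 and 1853 CPM against 2669 and 2736 CPM, with Insr and Tgfbr3 the 2 of 21 tested members past 2-fold lower, beside 5.19% of all tested genes. The Schwann and perineurial list was at 125 and 177 CPM against 56.7 and 89.5 CPM, most of it from the adhesion molecule Ncam1 (85.4 and 118 CPM against 26.9 and 33.8 CPM), a gene that other mesenchymal cells also express. Against non-cycling FAPs of at least 20000 UMIs the log2 ratio of this list was 0.52 and 0.60, from 1.14 and 0.98. The list of Vit and Clu stromal genes held only 5 and 19 UMIs in cycling FAPs.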
